A study of Homo sapiens with 19 samples.

Results

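A set of 2829 genomic sites carried a V5 interval in both E2F1 lines of C4-2 cells after doxycycline, had none in either untreated line, and lay outside the mapped sites of the retinoblastoma protein RB. They were chosen from 64025 intervals of wild-type (WT) E2F1 after doxycycline, in a series of 203381 intervals over 10 lists. A site was kept when it overlapped an interval of K185R E2F1 after doxycycline by at least 1 base and overlapped no interval of untreated WT, untreated K185R, RB in C4-2 or RB in VCaP. Presence and absence in these 6 lists chose the sites, so the values in those lists are a description and carry no test. The sites were 4.42% of the WT doxycycline list, and their 2825 distinct partners were 12.7% of the K185R doxycycline list. As background to the rule, 8.06% of all WT doxycycline intervals met the K185R doxycycline list, 19.6% met an untreated V5 list and 1.71% met an RB list.

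The study mapped proteins on chromatin by chromatin immunoprecipitation with sequencing (ChIP-seq) in 19 libraries. C4-2 is a castration-resistant prostate cancer line and VCaP another prostate cancer line, and all cells were kept in medium with charcoal-stripped serum, which is low in steroid hormones. V5-tagged E2F1, WT or with lysine replaced by arginine in K185R, came from tetracycline-controlled constructs in C4-2 cells, and antibody to V5 was used. Each construct was mapped untreated, after doxycycline (0.25 ug/ml for 3 days), after the LSD1 inhibitor GSK2879552 (50 uM for 24 hours), and after doxycycline followed by GSK2879552, with 2 libraries in each group. For RB there were 2 libraries from C4-2 and 1 from VCaP, all without treatment. The sources used here do not give whether a line was 1 clone or a pool, nor whether tagged E2F1 was present without doxycycline. The labels say untreated and doxycycline where the names of the lists say siNTC and siRB, so doxycycline here means the groups as labelled.

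E2F1 is a transcription factor that binds promoters of genes for DNA replication and the cell cycle. RB binds E2F1 and holds such genes inactive until cyclin-dependent kinases release it. LSD1 is a demethylase of histones and of other proteins. Doxycycline is the usual inducer of tetracycline-controlled genes, and untagged E2F1 of the cells is not seen by a V5 antibody.

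Each group had 1 list of intervals, so the spread between libraries could not be measured and no p-value was computed for any comparison. The V5 lists rested on 0.716 to 1.79 reads per kilobase of genome, with 1.40 in WT and 1.12 in K185R after doxycycline, and 1.21 and 1.79 in untreated WT and K185R. At low local background (under 1.5 times the genome-wide level of a list), the weakest interval rested on 3 reads in each V5 list. A site with no interval in a list was therefore a site without a call, not a site without reads. Sites are given in hg19 coordinates. No hg19 genome or annotation was used here, so genes and sequences at the sites are not given.

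The sites were weak in both lists that chose them. Fold enrichment was the reads at the summit over local background, with a pseudo-read added to both. It was therefore lower than the plain ratio of reads to background. In the WT doxycycline list the fold enrichment was 2.97 at the lowest, 4.82 at the median and 8.85 at the highest. In the K185R doxycycline list it was 3.11, 4.79 and 9.61. The median summit held 5 reads in each list, and 65.7% of the sites in WT and 78.8% in K185R had 5 reads or fewer. In the whole lists these shares were 66.2% of WT and 74.7% of K185R intervals. At 7 reads or more were 7.49% of the K185R partners against 11.8% of their whole list, and 15.6% of the sites in WT as of the whole WT list. The smallest width of the WT list, 174 bases, was found for 45.0% of the sites, against 49.9% of the whole list. In K185R the smallest width, 168 bases, was found for 59.7% of the partners and 59.7% of the whole list. At a −log10 q of 5 or more there were 204 sites in WT (7.21%, against 6.64% of the whole list) and 100 in K185R (3.53%, against 6.49%), and 13 sites reached it in both. The rule used both lists, so these shares carry no test.

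**Figure D1:**
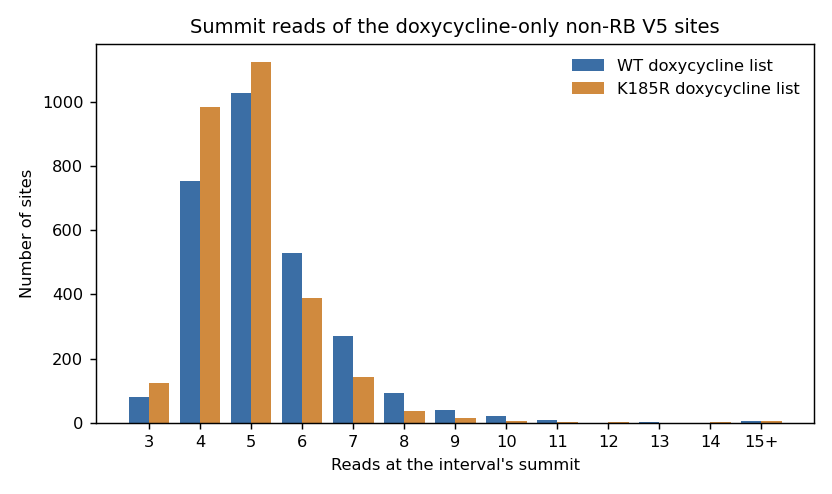
Number of doxycycline-only non-RB V5 sites (vertical axis) by the number of reads at the interval's summit (horizontal axis), in the WT list (blue) and the K185R list (orange) after doxycycline; the last pair of bars holds 15 reads or more. Most sites had 4 to 6 reads, and 78 sites in WT and 34 in K185R had 9 or more.

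Intervals at RB sites stood far above this level. The 665 WT doxycycline intervals that met both the K185R doxycycline list and an RB site had a median of 36 summit reads in WT and 31 in K185R. The 1669 intervals outside RB sites that met the K185R doxycycline list and also an untreated V5 list had medians of 6 and 5. Local background also differed, with a median of 17.8 times the genome-wide level at the RB sites and 1.07 times at the doxycycline-only sites. Local background of at least 10 times the genome-wide level, called high here, was found at 7 of the 2829 sites (0.247%) in either list. It was found for 1.03% of the whole WT and 2.53% of the whole K185R doxycycline list.

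Strength in the 2 doxycycline lists was only weakly related across these sites. Across the 2829 sites, Spearman's rho between WT and K185R was 0.07 for fold enrichment and 0.13 for summit reads. For local background it was 0.55. These correlations describe sites of the same 2 lists, and most sites had 3 to 8 reads in either. With so narrow a range of reads, a low rho cannot show how far strength in the 2 lines is related.

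The distance between summits was not itself a criterion, but it is bounded by the required overlap of short intervals (median widths of 181 bases in WT and 168 in K185R). The distances are therefore a description, and what overlap alone would give was not tested. The WT and K185R summits of a site lay a median of 53 bases apart, with quartiles of 24 and 94. At 605 sites (21.4%) the summits were within 20 bases, and at 2212 (78.2%) within 100 bases. Among the intervals at RB sites the median distance was 8 bases, and 72.2% were within 20 bases. Among those also found in an untreated list outside RB sites it was 41 bases, with 34.4% within 20 bases. Sites of more reads were little closer: 26.9% of the 78 sites with 9 or more WT reads, and 17.3% of the 833 with 4 or fewer, had summits within 20 bases.

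Similar distances were found where the partner list was an untreated one. WT doxycycline intervals that met only the untreated K185R list numbered 7704 outside RB sites, with a median summit distance of 53 bases and 21.5% within 20 bases. Those that met only the untreated WT list numbered 1666, with a median of 53 bases and 22.4% within 20 bases. The median fold enrichment of both groups in the WT doxycycline list was 4.82, as for the doxycycline-only sites. Their median summit in that list held 5 reads, again as for the doxycycline-only sites. Fold is computed from reads and background, so the equal folds are not separate from the equal reads.

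**Figure D2:**
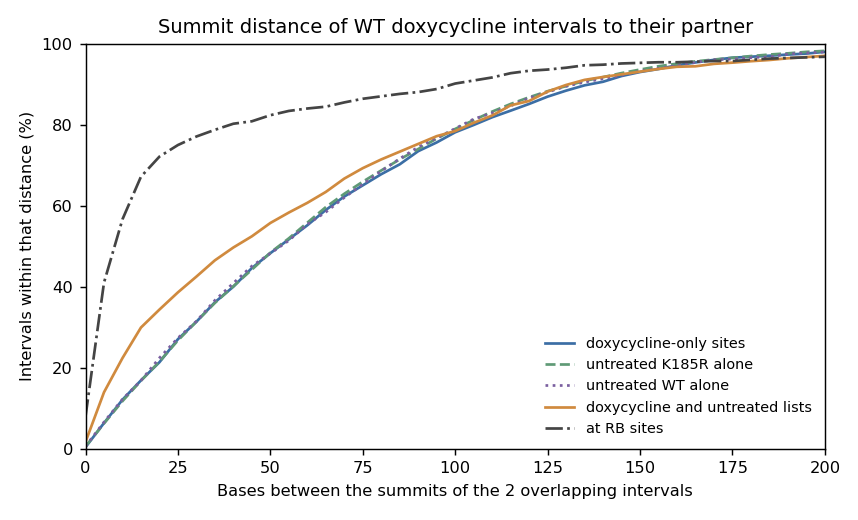
Share of WT doxycycline intervals (vertical axis, %) whose summit lay within a given number of bases (horizontal axis) of the summit of the overlapping interval in the partner list; lines are sets of intervals, outside RB sites except where named. The doxycycline-only line runs with those that met untreated K185R alone or untreated WT alone (medians of 53 bases in each), and the line for RB sites rises fastest (median of 8 bases).

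The share of the partner list that was met was also compared. WT doxycycline intervals that met 1 V5 list alone took 12.7% of the K185R doxycycline list, 11.0% of the untreated WT list and 13.8% of the untreated K185R list. When each of these 4 lists was cut to its top 15099 intervals by −log10 q, the shares were 4.46% (673 sites), 3.96% (598) and 4.88% (737) in the same order. These shares come from the lists that the rule used, so they are a description, and no difference between them was tested. The opposite set, untreated WT intervals that met the untreated K185R list and neither doxycycline list outside RB sites, numbered 1436, or 9.51% of the untreated WT list and 2.58% of the untreated K185R list.

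The edges of the rule were also described. Sites that met K185R by 10 bases or fewer numbered 19, with a median fold of 4.57 and 5 summit reads, and 19 intervals missed a K185R interval by 10 bases or fewer, with the same medians. Sites that missed an excluding interval by 10 bases or fewer numbered 8 (median fold 4.90), and 14 intervals were excluded by an overlap of 10 bases or fewer (median fold 4.79). The nearest excluding interval was a median of 10152 bases away, and it was within 1000 bases at 182 sites (6.43%).

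The 4 GSK2879552 lists were not used to choose the sites and show how often they recurred. At 2635 of the 2829 sites (93.1%) none of these lists had an interval. One list had an interval at 183 sites, 2 lists at 10 sites, 3 lists at 1 site and all 4 at 0 sites. An interval in any of them was found at 194 sites (6.86%, 95% Wilson interval 5.98 to 7.85), against a background of 6.57% over all WT doxycycline intervals. The Wilson intervals cover counting error over intervals only, since reads from PCR without molecular identifiers are not independent molecules and intervals are not replicates. Without intervals at RB sites, the WT doxycycline list gave 5.31% (5.14 to 5.49), below the interval of the sites. Among intervals that met only 1 untreated list outside RB sites, the shares were 7.05% (untreated K185R) and 9.24% (untreated WT). Recurrence above 5.31% was thus not particular to the doxycycline-only sites.

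With doxycycline and GSK2879552, 41 sites had an interval in WT (1.45%, Wilson interval 1.07 to 1.96; background 2.15%) and 37 in K185R (1.31%, 0.950 to 1.80; background 1.94%). With GSK2879552 alone, 18 sites had one in WT (0.636%, 0.403 to 1.0; background 1.69%) and 110 in K185R (3.89%, 3.24 to 4.67; background 4.20%). The shares were thus below the background of the whole list in each of the 4 lists. In K185R with GSK2879552 alone the background of 4.20% lay inside the sites' interval. That background includes the strong intervals at RB sites. Outside RB sites the whole WT doxycycline list gave 1.12%, 1.21%, 0.750% and 3.26% in the same order, and these values lay inside the sites' intervals.

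The name doxycycline-only holds for the lists of the rule but not for all lists. A GSK2879552 list without doxycycline had an interval at 128 of the sites (4.52%; background 4.89%), and one with doxycycline at 77 (2.72%; background 3.22%). Lists with doxycycline and none without had one at 66 sites (2.33%, Wilson interval 1.84 to 2.96; background 1.67%), and lists without and none with at 117 (4.14%, 3.46 to 4.93; background 3.35%). Both shares were above the background. These shares were 2.12% and 4.57% of the intervals that met only the untreated K185R list outside RB sites. They were 2.94% and 5.76% of those that met only the untreated WT list, so the excess was not particular to the doxycycline-only sites. Both kinds of list had an interval at 11 sites (0.389%, 0.217 to 0.695), below the background of 1.54%. That background includes intervals at RB sites, and outside RB sites it was 0.567%, inside the interval of the doxycycline-only sites. Both lists with GSK2879552 and doxycycline held 1 common site (background 0.872%), and both lists with GSK2879552 alone held 0 (background 0.987%), which allows a share of up to 0.136% by the Wilson interval. Outside RB sites these backgrounds were 0.208% with doxycycline and 0.251% without. Among intervals that met only the untreated K185R list the shares were 0.0649% and 0.0909%.

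In WT, more sites recurred with doxycycline and GSK2879552 than with GSK2879552 alone, and in K185R fewer. The GSK2879552 lists differ in length, with 3874 intervals in WT and 3498 in K185R on top of doxycycline, and 2805 and 9899 without it. As a share of the list, the recurring sites were 1.06% and 1.06% with doxycycline, and 0.642% and 1.11% without. The depths were 0.812 and 0.837 reads per kilobase with doxycycline, and 0.716 and 1.02 without, and the part of length and depth in this order was not tested. WT doxycycline intervals that met only the untreated K185R list followed the same order, with 1.17% and 1.38% in the WT and K185R lists with both agents and 0.701% and 4.32% with GSK2879552 alone. Their Wilson intervals overlapped those of the doxycycline-only sites in each of the 4 lists.

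Sites shared with an untreated list recurred far more often. Of the 1669 intervals in both doxycycline lists and an untreated list outside RB sites, 15.3% and 13.5% were in the WT and K185R lists with doxycycline and GSK2879552, and 11.3% and 23.6% in those with GSK2879552 alone. Of the 48455 WT doxycycline intervals in none of the other 5 lists, the shares were 0.508%, 0.675%, 0.328% and 2.16% in the same order. The doxycycline-only sites lay between these sets in each list. The sets differ in the number of lists that held them, and no test of these differences was made.

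**Figure D3:**
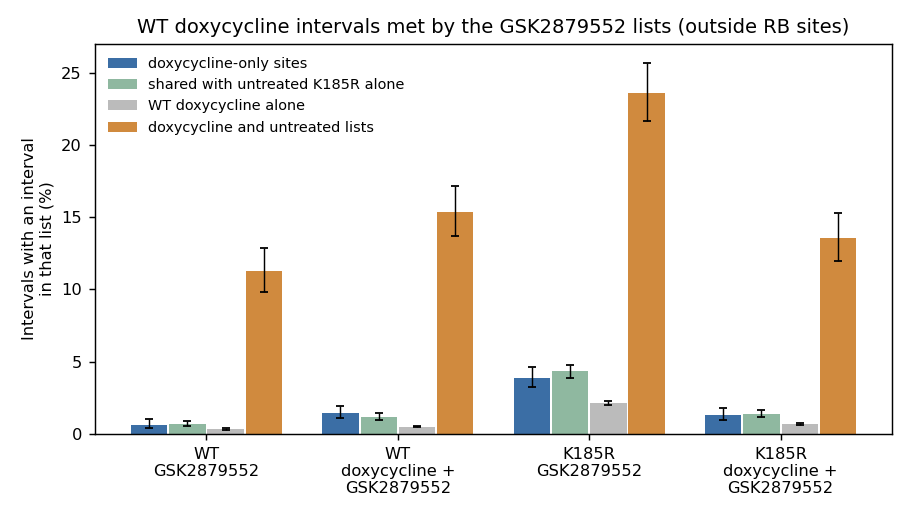
Percentage of WT doxycycline intervals outside RB sites (vertical axis) that overlapped an interval of each of the 4 GSK2879552 lists (horizontal axis), for 4 sets of intervals; error bars are 95% Wilson intervals for counting error. The doxycycline-only sites (blue) and the intervals shared with untreated K185R alone (green) have overlapping error bars in each list, and intervals also in an untreated list (orange) reach 11.3% to 23.6%.

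Recurrence was also set against the reads at a site, and the highest shares were at sites of most reads. Among sites of 4 or fewer WT summit reads, 53 of 833 (6.36%) were in any GSK2879552 list, against a background of 4.17% over WT doxycycline intervals of as many reads. At 5 reads it was 5.36% (background 4.88%), at 6 reads 7.39% (background 5.03%) and at 7 or 8 reads 10.2% (background 7.24%). At 9 or more reads it was 10 of 78 sites (12.8%, Wilson interval 7.12 to 22.0; background 47.9%). The background at 9 or more reads includes RB sites, and without them it was 28.9%. Intervals in both doxycycline lists and an untreated list reached 73.6% at 9 or more reads. Those that met only the untreated K185R list outside RB sites gave 5.39%, 6.25%, 6.87%, 11.0% and 18.1%, from the fewest reads to the most. The doxycycline-only sites were above these at 4 or fewer and at 6 reads, and below them in the other classes.

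**Figure D4:**
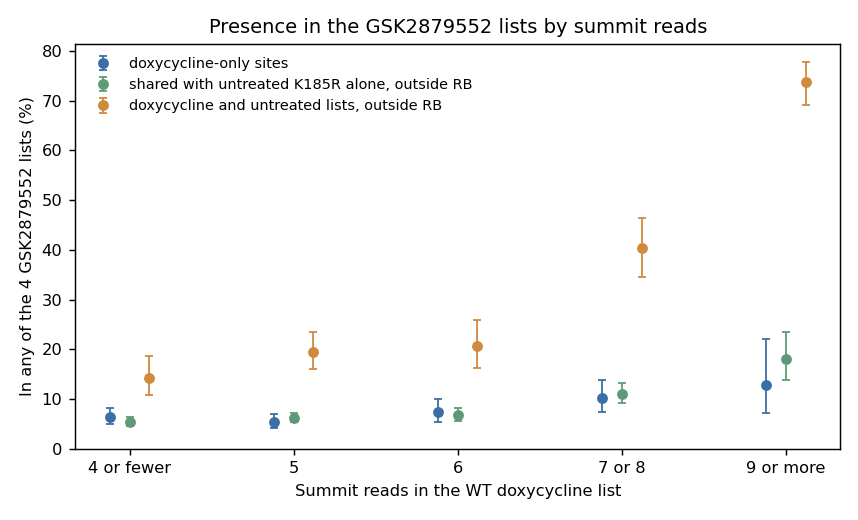
Percentage of intervals found in any of the 4 GSK2879552 lists (vertical axis) by summit reads in the WT doxycycline list (horizontal axis), with 95% Wilson intervals for counting error. The doxycycline-only sites (blue) go from 6.36% at 4 or fewer reads to 12.8% at 9 or more. Intervals shared with untreated K185R alone (green) go from 5.39% to 18.1%, and intervals also in an untreated list (orange) from 14.3% to 73.6%.

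Where the sites recurred, the intervals were as weak as before. The median summit held 5 reads in the WT list with GSK2879552, 4 in WT with both agents, 5 in K185R with GSK2879552 and 5 in K185R with both. The highest were 10, 10, 12 and 8 reads in the same order. Median folds of these intervals were 5.19, 4.33, 4.88 and 5.00, beside 5.19, 5.12, 4.86 and 5.01 for the whole lists.

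Sites that recurred in several GSK2879552 lists were few, and those outside chromosome 8 are given one by one. Their folds and reads come from lists of different depth (0.716 to 1.40 reads per kilobase). The order of folds across lists is therefore a description only and was not tested. The site on chromosome 3 at 195494217 to 195494399 was found in 3 GSK2879552 lists. Its fold was 5.55 in WT and 5.44 in K185R after doxycycline (6 reads each), 7.10 in WT with both agents (8 reads), 5.12 in K185R with both agents (5 reads) and 6.66 in K185R with GSK2879552 alone (8 reads). It was the 1 site that both lists with doxycycline and GSK2879552 held, and its highest folds came with GSK2879552.

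Several others recurred in K185R. On chromosome 12 at 106750076 to 106750249 the folds were 6.02 in WT (9 reads) and 5.05 in K185R (6 reads) after doxycycline, and 9.25 (12 reads) and 6.42 (7 reads) in K185R with GSK2879552 alone and with both agents. On chromosome 13 at 53234973 to 53235147 the folds were 5.63 and 5.75 after doxycycline (6 reads each), 6.51 in K185R with GSK2879552 (7 reads) and 6.04 with both (6 reads). On chromosome 4 at 111188208 to 111188381 they were 4.60 in WT (6 reads) and 5.38 in K185R (7 reads), then 6.49 (8 reads) and 5.00 (6 reads). At these sites the highest fold was that of K185R with GSK2879552 alone, a group without doxycycline, and the WT lists with GSK2879552 had no interval.

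A site on chromosome 10 at 30656272 to 30656568 had folds of 6.43 in WT (7 reads) and 7.29 in K185R (8 reads) after doxycycline. It had lower folds in K185R with GSK2879552 (4.13, 4 reads) and with both agents (5.12, 5 reads). Its WT and K185R summits were 2 bases apart. The site on chromosome 9 at 67335335 to 67335548 was weak throughout, with folds of 4.51 and 4.99 after doxycycline (5 and 6 reads) and of 4.17 and 4.35 in the K185R lists with GSK2879552 alone and with both (5 and 6 reads).

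In WT, recurrence with and without doxycycline was seen at a pair of sites. On chromosome 12 at 107350886 to 107351062 the fold was 5.33 in WT (6 reads) and 3.99 in K185R (4 reads) after doxycycline, and 6.67 (8 reads) and 8.19 (10 reads) in WT with GSK2879552 alone and with both. On chromosome 16 at 81660177 to 81660490 it was 7.67 in WT (10 reads) and 5.44 in K185R (6 reads), and 5.19 (6 reads) and 4.88 (5 reads) in WT with GSK2879552 alone and with both. The order of the WT folds differed, since the highest was with both agents at the former site and with doxycycline alone at the latter. A further site on chromosome 7 at 14958496 to 14958862 had folds of 3.97 and 4.05 after doxycycline (4 reads each), 5.04 in WT with both agents (5 reads) and 7.12 in K185R with GSK2879552 (8 reads).

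The strongest sites in both doxycycline lists are given next. Of the 10 ranked highest by the worse of their 2 ranks, 2 had an interval in a GSK2879552 list, beside 6.86% of all sites, and 10 sites are too few to set these apart. The site on chromosome 6 at 108594724 to 108594904 had folds of 7.71 in WT (11 reads) and 7.04 in K185R (9 reads), with summits 23 bases apart. On chromosome 5 at 177884248 to 177884538 they were 7.23 and 7.78 (9 reads each). On chromosome 3 at 56825986 to 56826168 they were 7.86 (10 reads) and 6.57 (8 reads), with summits 2 bases apart. These 3 sites had an interval in the doxycycline lists and in none of the other 8.

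Further sites of this kind lay on chromosome 11 at 12232680 to 12232874, with folds of 7.24 in WT (8 reads) and 6.66 in K185R (7 reads), and on chromosome 10 at 30834952 to 30835140, with 6.54 (11 reads) and 6.43 (9 reads). On chromosome 4 at 87626257 to 87626496, WT reached a fold of 8.04 (9 reads) and K185R 5.89 (6 reads). The same K185R value was found on chromosome 1 at 243593744 to 243594065, where WT had 7.42 (9 reads), and on chromosome 6 at 19661819 to 19662071, where WT had 7.04 (8 reads). The 2 that recurred lay on chromosome 2 at 38315802 to 38316112 and on chromosome Y at 13717198 to 13717453. The former had folds of 7.72 in WT (9 reads) and 6.49 in K185R (8 reads) and met K185R with GSK2879552 (4.68, 5 reads). The latter had 6.57 and 6.97 (13 and 11 reads) and met WT with GSK2879552 (7.41, 10 reads), on a local background of 3.49 to 4.65 times the genome-wide level. Both recurrences came in lists without doxycycline.

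The highest fold of any site in the doxycycline lists was that of K185R on chromosome 6 at 11387620 to 11387793, with 9.61 (12 reads) against 4.02 (4 reads) in WT after doxycycline. In WT with both agents its fold was 4.27 (4 reads).

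A few sites had many reads on a high local background. The site on chromosome 2 at 91600658 to 91600849 had 67 reads in WT and 54 in K185R at folds of 3.24 and 3.12, on backgrounds of 82.3 and 88.5 times the genome-wide level. On chromosome 10 at 38872092 to 38872266 there were 24 and 20 reads on backgrounds of 17.3 and 18.1 times. On chromosome 21 at 10086686 to 10087080 there were 15 and 14 reads on backgrounds of 12.5 and 12.3 times. None of these 3 sites was in a GSK2879552 list.

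The sites were spread over all 24 nuclear chromosomes. For each 100 WT doxycycline intervals there were 4.42 sites in the whole genome, and from 3.18 on X to 5.30 on chromosome 3 leaving out Y, where 4 sites lay. The Wilson interval held the genome-wide value on 20 chromosomes. It lay above that value on chromosome 3 (271 sites, 4.72 to 5.94) and chromosome 7 (198 sites, 4.45 to 5.83), and below it on chromosome 2 (181 sites, 3.31 to 4.40) and X (60 sites, 2.48 to 4.07). The intervals cover counting error only and make no allowance for looking at 24 chromosomes. No difference between chromosomes was tested. Gene-rich chromosome 19 held 37 sites, or 3.32 for each 100 intervals (2.42 to 4.55).

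**Figure D5:**
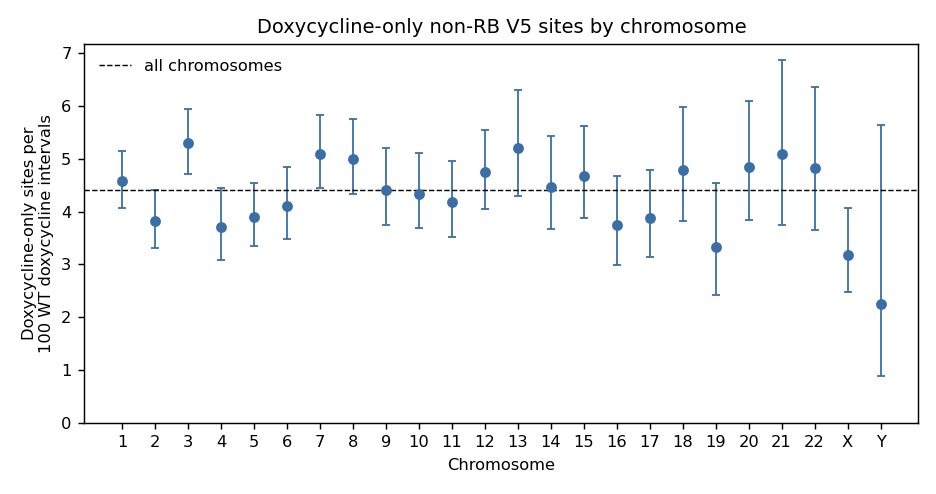
Doxycycline-only non-RB V5 sites for each 100 WT doxycycline intervals (vertical axis) by chromosome (horizontal axis), with 95% Wilson intervals for counting error; the dashed line is the value over all chromosomes, 4.42. Chromosomes 3 (5.30), 7 (5.09), 2 (3.82) and X (3.18) have error bars that do not reach the line.

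Neighbouring sites were a median of 583407 bases apart, and 25 neighbouring pairs started within 10000 bases of each other. In windows of 5 Mb the median was 4 sites where any lay. The fullest window, chromosome 13 at 25000001 to 30000000, had 24 sites among 250 WT intervals, and the window at 20000001 to 25000000 had 15 among 225. Windows of 13 or more sites numbered 10, and 6 of them lay on chromosome 3. The windows were ranked by count, not by rate. On chromosome 1 at 140000001 to 145000000 there were 12 sites among 101 WT intervals. That was 11.9 for each 100 intervals, against 9.6 in the fullest window. The median local background of WT intervals was 1.43 and 1.36 times the genome-wide level in the chromosome 13 windows and 1.15 to 1.29 times in those of chromosome 3, against 1.15 in the whole list. The part of local background in these counts was not tested. The windows were singled out after their counts were seen.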

How the data were processed

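The authors deposited 1 MACS2 narrowPeak list per group. FastQC 0.11.9, BWA 0.7.9a, SAMtools 1.2, MACS2 2.1.0 and the build hg19 are named per the submitters' processing notes, and no source used here gives their settings. In the V5 lists the names of intervals carry the word merged; the RB lists do not state pooling. Each deposited interval carries the authors' fold enrichment (a linear ratio), their −log10 p and −log10 q, a score and a summit. These are the authors' values of single intervals. Where values of different lists stand side by side, they are a description.

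Summit reads and local background were solved from the deposited fold and −log10 p (a pseudo-read of 1 in numerator and denominator, and a Poisson tail). As genome-wide level served the smallest background value that 5 or more intervals had in common, and depth is that level divided by the smallest width. Overlap meant 1 base or more. The solver and the overlaps were tested on simulated data (Python 3.11.15, SciPy 1.17.1, bedtools 2.31.1).

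Members and comparison sets were chosen with earlier results of these data known. Named sites were the 10 in the most GSK2879552 lists (ties by the better of 2 −log10 q ranks), the 10 with the best worse rank, both with local background under 10 times the genome-wide level, and the 3 of highest background, outside chromosome 8. The rules for gene starts, gene lists, motifs and base composition need an hg19 genome or annotation and were not applied. Alternatives were a stricter threshold, other overlap rules, no high background, distance from excluded intervals and K185R intervals in place of WT; lists of equal length and at least 6 reads in both lists were added after seeing the data.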

Additional observations from a re-analysis of the deposited data

Results flagged for a closer look

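The share of the doxycycline-only sites with an interval under GSK2879552 moved in opposite directions in WT and K185R E2F1. The list with doxycycline and GSK2879552 minus the list with GSK2879552 alone gave 0.813 percentage points in WT (1.45% against 0.636%) and -2.58 in K185R (1.31% against 3.89%). All WT doxycycline intervals moved in the same directions (2.15% against 1.69% in WT, 1.94% against 4.20% in K185R), so the pattern was not particular to these sites. The opposite set of 1436 untreated WT intervals went the other way in WT (1.60% against 1.74%). In K185R it went the same way (1.18% against 4.74%). As a share of each GSK2879552 list, the recurring sites were 1.06% against 0.642% in WT and 1.06% against 1.11% in K185R. Each value compares 1 list with 1 list, and the difference was not tested.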

How the results depend on the processing

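The number of sites was 2829, and it stayed within 1.5 times that under other overlap rules (2306 with at least 50% of both intervals, 2358 with summits within 100 bases), without high background (2823), with no excluded interval within 1000 bases (2647) and with K185R intervals in place of WT (2850). At −log10 q of at least 5 in both doxycycline lists it was 13, with shares of 7.69% in the WT and 15.4% in the K185R list with GSK2879552, and 0% and 7.69% in those with both agents. The WT difference between the last pair of conditions was then -7.69 percentage points, a reversal that rests on 1 site. With the 4 V5 lists of the rule cut to equal length (15099 intervals each), there were 673 sites. The untreated lists that exclude sites were cut as well, so these sites need not be among the 2829. Their shares were 2.23% in WT with both agents, 6.69% in K185R with GSK2879552 and 3.27% in K185R with both. With at least 6 reads in both lists there were 255 sites, and these shares were 2.75%, 8.24% and 3.92%. The shares of the K185R doxycycline, untreated WT and untreated K185R lists were 10.3%, 9.03% and 10.5% with 50% of both intervals, 10.6%, 9.74% and 11.4% with summits within 100 bases, and 4.46%, 3.96% and 4.88% at equal length. The cause of these shifts was not tested. No paired analysis was possible because each group has 1 list and no test was made; with no list per library, no library could be left out. Alternatives on gene starts, motifs and base composition were not run. Depth limits what absence from a list shows, since the weakest V5 intervals rested on 3 reads.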
